A study of Mus musculus with 6 samples.

Results

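The writers, erasers and readers of DNA methylation were examined in whole embryonic brain. The 9 genes Dnmt1, Uhrf1, Dnmt3a, Dnmt3b, Tet1, Tet2, Tet3, Mbd2 and Mbd3 were taken by gene symbol from a table of 53801 genes, and all 9 passed the count minimum that left 24739 genes for testing. RNA-seq had been done on the whole brain of C57BL/6 mouse embryos at stage E16.5, with 3 embryos that lacked both copies of Bahd1 (Bahd1-KO, genotype Bahd1-/-) and 3 embryos with both copies (Bahd1-WT, genotype Bahd1+/+). The Bahd1 mutation was constitutive rather than limited to brain cells, and the sex of the embryos was not given in the labels. BAHD1 is a scaffold protein of repressive chromatin complexes that hold histone deacetylases, and the comparison asked whether its loss changed the expression of these genes before birth.

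In mammals, methyl groups are placed mainly on cytosines that are followed by guanine (CG sites). DNMT3A and DNMT3B place new methyl groups, and DNMT1 copies them to the new strand after replication, brought there by UHRF1, which recognises half-methylated sites. TET1, TET2 and TET3 oxidise methylcytosine on the way to its removal, a pathway that is prominent in neurons. MBD2 binds methylated CG sites and recruits the NuRD complex, in which MBD3, a close relative that has largely lost this binding in mammals, can take its place.

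The labels of the libraries were checked first. Bahd1 counted 1971, 3102 and 3470 reads in wild-type replicates 1, 2 and 3, against 2, 10 and 6 in the knockout replicates 1, 2 and 3. Its log2 fold change was -8.40 (95% interval -9.83 to -6.98, adjusted p = 0.0462 in the quasi-likelihood test of edgeR), and -8.56 without Bahd1-KO replicate 3 (adjusted p = 0.0158). The libraries held between 61724000 and 91782802 counts. Bahd1-KO replicate 3 stood apart from the other 5. Gm42418, annotated over ribosomal RNA, took 22.575% of its counts against 0.12 to 0.394% elsewhere, and both mitochondrial ribosomal RNAs took 22.087% against 0.101 to 0.279%. Its markers also departed from those of embryonic brain. On the scale of CPM (counts per 1e6 counts) scaled with trimmed mean of M-values factors (TMM-scaled CPM), 10 neuron markers summed to 2499 in this library against 10380 to 12307 in the others, and 7 of the 10 were lowest there. Of the other 3, Snap25 was highest in this library, at 910 against 154 to 285, and Syt1 and Rbfox3 lay within the range of the others. Markers of lung summed to 1474 against 0.355 to 11.6, those of mature brain to 1447 against 106 to 217 and those of skeletal muscle to 143 against 6.07 to 15.8, with every marker of these 3 lists highest in this library. Dcx, the doublecortin gene of young neurons and the neuron marker with the lowest share of the other embryos' levels, was at 33.0 against 1865 to 3713. Lung markers were also above the rest in Bahd1-KO replicate 2, whose sum of 11.6 compares with 0.355 to 0.554 in the remaining 4, and Scgb1a1, a gene of airway secretory cells, was at 6.05 there and at 6.52 in Bahd1-KO replicate 3. The markers of Bahd1-KO replicate 3 thus differed from its label of embryonic brain, and results are given with and without this library. Markers of dividing cells, in which DNMT1 and UHRF1 act, summed to 1433 in Bahd1-KO replicate 3, against 567 to 784 in the other 5 libraries. Mki67 (663) and Top2a (340) made up most of that sum. Of the 12 markers, 8 were highest in this library, whereas Mcm2, Mcm5 and Rrm2, genes of DNA replication, lay within the range of the others and Pcna, the replication clamp, was lowest.

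All 9 genes were expressed in every embryo. Per kilobase of exon, which allows genes to be compared with each other, Dnmt1 was highest, with a mean of 20.3 TMM-scaled CPM per kb (SD 6.55, n = 6). Mbd3 followed at 18.6 ± 13.2, then Mbd2 at 12.1 ± 7.91, Dnmt3a at 11.0 ± 1.90, Tet3 at 8.67 ± 1.61, Uhrf1 at 5.97 ± 1.64, Tet1 at 5.72 ± 1.69, Tet2 at 4.26 ± 0.955 and Dnmt3b at 0.814 ± 0.285 (SD, n = 6 each). Among 16976 protein-coding genes tested, Dnmt1 lay at percentile 88.0 of this scale, Tet2 at 52.7 and Dnmt3b at 26.6. Neighbours in this order overlapped in range, apart from Tet2 and Dnmt3b, whose ranges lay apart. Dnmt3a was above Tet3 in 6 of 6 embryos, whereas Dnmt1 was above Mbd3 in 3 of 6. The place of Mbd2 rested on Bahd1-KO replicate 3. Over the other 5 embryos its mean was 8.88, below Dnmt3a at 11.7 and Tet3 at 9.21, and Tet1 at 6.14 was then above Uhrf1 at 5.74. Dnmt1 and Mbd3 headed the order in both sets of embryos, and the de novo enzyme Dnmt3b closed it.

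**Figure D1:**
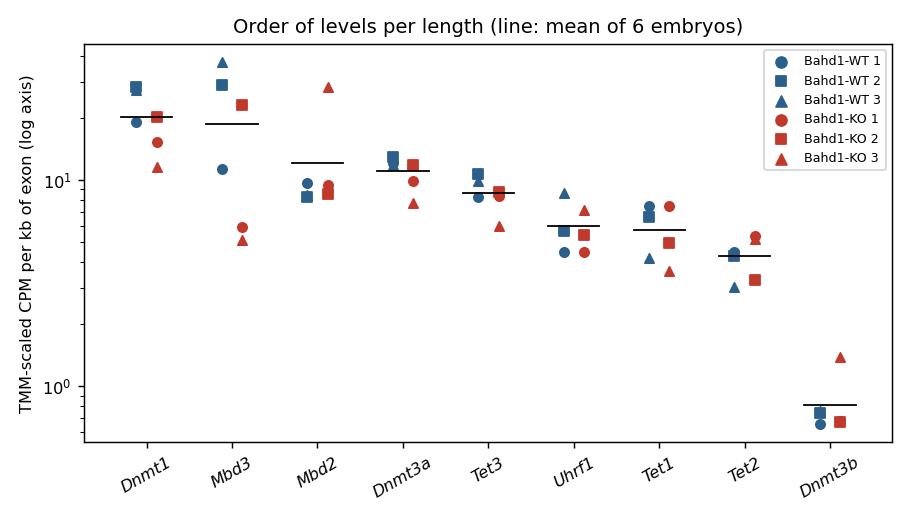
TMM-scaled CPM per kb of exon (log axis) of the 9 genes in each embryo, ordered by the mean of 6 embryos (line), with genotypes in colour and replicates by marker. Dnmt3b, at 0.653 to 1.39, lies below every value of the other 8 genes, and Mbd3 spans 5.11 to 37.3.

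Since these genes act on CG sites, the CG sites at their own starts were counted, in windows from 250 bases before to 50 bases after each start in RefSeq (GRCm38.p6). The table held 13 windows for 8 of the 9 genes, and Mbd2 had none. All 32851 windows of the table had a median of 7 CG sites. The Tet2 window (chr3:133544341-133544640, reverse strand) held 57, and 99.8% of all windows held fewer. One Dnmt1 window (chr9:20952574-20952873, reverse strand) held 33, and the most upstream one (chr9:20959839-20960138) held 2. One Uhrf1 window (chr17:56304063-56304362, forward strand) also held 33, and the Mbd3 window (chr10:80399482-80399781, reverse strand) held 22. Of the others, Dnmt3a held 46, 47 and 18 at its 3 starts, Dnmt3b 30, Tet3 22, Tet1 17, and the further starts of Dnmt1 and Uhrf1 12 each. The letters TTTCGCGC or TTTGGCGC, bound by the cell-cycle factors of the E2F family, were searched on both strands. They stood in the 2 windows of Dnmt1 and Uhrf1 with 33 CG sites, in no other window of these genes, and in 0.813% of all windows. The letters themselves contain CG, and their share among windows equally rich in CG was not computed. The shorter E2F letters GGCGGGAA or GCGGGAAA, which overlap each other, stood in 1 of the 13 windows (a second Uhrf1 start) and in 2.73% of all, and CCAAT in 6 of the 13 and in 37.4% of all. A match is a description of the letters and not a bound site. The windows of both maintenance genes, of Tet2 as the richest in CG, and of Mbd3, whose RNA varied most between embryos, are printed here from 5′ to 3′ with CG sites in capitals.
Dnmt1: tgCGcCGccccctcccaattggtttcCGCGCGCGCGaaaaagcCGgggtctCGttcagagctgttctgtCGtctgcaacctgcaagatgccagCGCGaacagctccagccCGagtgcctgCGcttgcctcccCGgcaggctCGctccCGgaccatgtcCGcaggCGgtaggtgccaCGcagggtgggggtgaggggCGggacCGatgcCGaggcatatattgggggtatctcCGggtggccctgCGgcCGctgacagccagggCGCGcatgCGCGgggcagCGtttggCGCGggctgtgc
Uhrf1: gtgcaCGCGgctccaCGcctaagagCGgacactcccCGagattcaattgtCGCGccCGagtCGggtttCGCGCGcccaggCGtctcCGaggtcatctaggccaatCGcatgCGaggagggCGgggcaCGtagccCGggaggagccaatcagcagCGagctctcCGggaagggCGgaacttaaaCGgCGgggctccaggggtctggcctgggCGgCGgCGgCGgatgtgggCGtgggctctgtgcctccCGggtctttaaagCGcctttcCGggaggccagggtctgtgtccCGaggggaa
Tet2: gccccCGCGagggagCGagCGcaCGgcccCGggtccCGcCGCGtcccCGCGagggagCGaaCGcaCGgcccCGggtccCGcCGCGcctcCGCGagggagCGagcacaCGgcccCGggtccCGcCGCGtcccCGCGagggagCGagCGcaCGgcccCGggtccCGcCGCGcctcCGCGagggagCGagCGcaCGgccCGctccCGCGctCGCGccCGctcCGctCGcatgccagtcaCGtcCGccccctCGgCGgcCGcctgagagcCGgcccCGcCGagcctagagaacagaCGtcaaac
Mbd3: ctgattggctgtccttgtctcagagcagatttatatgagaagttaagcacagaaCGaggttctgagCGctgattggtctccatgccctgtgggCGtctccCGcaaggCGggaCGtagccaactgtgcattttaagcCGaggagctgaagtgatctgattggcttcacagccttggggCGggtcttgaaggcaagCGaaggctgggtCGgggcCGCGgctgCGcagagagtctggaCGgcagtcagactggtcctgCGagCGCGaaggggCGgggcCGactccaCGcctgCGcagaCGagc

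For maintenance of methylation, Dnmt1 had a lower mean in Bahd1-KO, but the groups overlapped and the difference did not pass the test. Dnmt1 (ENSMUSG00000004099, chromosome 9, 20907209 to 20959888, reverse strand) was at 141, 207 and 202 TMM-scaled CPM in Bahd1-WT brains, against 112, 150 and 85.4 in Bahd1-KO brains, in the order of replicates 1, 2 and 3, which holds for all such values. Bahd1-KO replicate 2 lay above Bahd1-WT replicate 1, and the lowest value was that of Bahd1-KO replicate 3. Bahd1-WT averaged 183 ± 36.9 and Bahd1-KO averaged 116 ± 32.4 (SD, n = 3 each). This gave a log2 fold change of -0.66 (95% interval -1.36 to 0.04, adjusted p = 0.696, edgeR), and -0.49 (-1.07 to 0.09, adjusted p = 0.981) without Bahd1-KO replicate 3. In whole tissue, fewer cells that express a gene and less RNA of it per cell cannot be told apart.

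Uhrf1 did not pass the test either. Uhrf1 (ENSMUSG00000001228, chromosome 17, 56303321 to 56323486, forward strand) was at 18.9, 24.1 and 36.9 TMM-scaled CPM in Bahd1-WT brains, against 19.0, 23.1 and 30.4 in Bahd1-KO brains. The Bahd1-KO values lay within the range of Bahd1-WT, and the highest of them was that of Bahd1-KO replicate 3. In the fit, the log2 fold change was -0.14 (-0.93 to 0.65, adjusted p = 0.891, edgeR), and -0.35 (-1.08 to 0.38) without Bahd1-KO replicate 3. The ratio of Uhrf1 to Dnmt1 counts, which needs no scaling between libraries, was 0.134, 0.116 and 0.182 in Bahd1-WT brains, against 0.169, 0.154 and 0.355 in Bahd1-KO brains. The ratio of Bahd1-KO replicate 3 was above all others, and the other 5 overlapped between genotypes. The mean log2 ratio differed by 0.57 (exact two-sided permutation test over embryos, p = 0.3, smallest possible p 0.1), and by 0.19 without that embryo. With 4 such ratios tested, the adjusted p was 0.4. The part of the markers of dividing cells, of which 8 of 12 were highest in the same library, was not tested.

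For de novo methylation, Dnmt3a was abundant and Dnmt3b scarce, and Dnmt3a varied least of the 9 genes over the 6 embryos (highest 1.67 times the lowest). That rank rested on Bahd1-KO replicate 3. Without it the highest was 1.31 times the lowest for Dnmt3a, against 1.16 for Dnmt3b, 1.16 for Mbd2 and 1.28 for Tet3. Dnmt3a (ENSMUSG00000020661, chromosome 12, 3806007 to 3914443, forward strand) was at 201, 215 and 197 TMM-scaled CPM in Bahd1-WT brains, against 165, 197 and 129 in Bahd1-KO brains. Its Bahd1-WT values spread little, with a mean of 204 ± 9.75, and Bahd1-KO replicate 2 reached the lowest of them (mean of Bahd1-KO 163 ± 34.2, SD, n = 3 each). The log2 fold change was -0.32 (-0.90 to 0.25, adjusted p = 0.696, edgeR), and -0.19 (-0.63 to 0.26) without Bahd1-KO replicate 3.

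Dnmt3b (ENSMUSG00000027478, chromosome 2, 153649450 to 153687730, forward strand) had 319, 333 and 389 counts in Bahd1-WT brains, against 226, 289 and 384 in Bahd1-KO brains. These came to 3.33, 3.78 and 3.85 TMM-scaled CPM in Bahd1-WT brains, against 3.45, 3.42 and 7.12 in Bahd1-KO brains. Apart from Bahd1-KO replicate 3, which was 2.0 times the mean of the other 5, the highest embryo was 1.16 times the lowest. This gave a log2 fold change of 0.35 (-0.61 to 1.31, adjusted p = 0.771, edgeR), which changed sign to -0.10 (-0.68 to 0.48) without that embryo. The ratio of Dnmt3b to Dnmt3a counts was 0.0166, 0.0175 and 0.0196 in Bahd1-WT brains, against 0.0209, 0.0174 and 0.0553 in Bahd1-KO brains. Again a single library lay away from the rest. The mean log2 ratio differed by 0.61 (exact permutation test, p = 0.3, adjusted p = 0.4), by 0.09 without Bahd1-KO replicate 3 and by 0.93 without Bahd1-KO replicate 2 (exact p = 0.1, the smallest that this design allows). Leaving out any other embryo gave 0.55 to 0.80. When Bahd1-KO replicate 2 is left out, Bahd1-KO replicate 3 weighs more in its group.

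Among the erasers, Tet3 and Tet1 gave the larger shares of counts per length. Tet1 (ENSMUSG00000047146, chromosome 10, 62804570 to 62908996, reverse strand) was at 115, 103 and 64.8 TMM-scaled CPM in Bahd1-WT brains, against 116, 76.7 and 55.7 in Bahd1-KO brains. Replicates 1 of both genotypes were high and replicates 3 low, so that the spread within each genotype exceeded the difference between them. In the fit, the log2 fold change was -0.19 (-1.02 to 0.64, adjusted p = 0.860, edgeR), and 0.01 (-0.67 to 0.69) without Bahd1-KO replicate 3.

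Tet2 (ENSMUSG00000040943, chromosome 3, 133463679 to 133545139, reverse strand), which unlike Tet1 and Tet3 encodes no DNA-binding CXXC domain of its own, was at 75.2, 72.4 and 50.7 TMM-scaled CPM in Bahd1-WT brains, against 90.4, 55.5 and 87.0 in Bahd1-KO brains. Bahd1-KO replicate 2 and Bahd1-WT replicate 3 were the low embryos. The log2 fold change was 0.23 (-0.45 to 0.91, adjusted p = 0.787, edgeR), and 0.12 (-0.51 to 0.76) without Bahd1-KO replicate 3.

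Tet3 (ENSMUSG00000034832, chromosome 6, 83362373 to 83459084, reverse strand) was at 139, 178 and 166 TMM-scaled CPM in Bahd1-WT brains, against 140, 146 and 100 in Bahd1-KO brains. Bahd1-KO replicates 1 and 2 lay just above Bahd1-WT replicate 1, and Bahd1-KO replicate 3 was below all others. This gave a log2 fold change of -0.32 (-0.91 to 0.27, adjusted p = 0.697, edgeR), and -0.18 (-0.64 to 0.27) without Bahd1-KO replicate 3. Of the counts per length of the 3 TET genes, Tet3 took 39.5 to 58.0%, Tet1 24.4 to 36.9% and Tet2 17.6 to 34.9% over the 6 embryos. Tet3 was the first of the 3 in every embryo. Tet1 was second in 5 embryos, and in Bahd1-KO replicate 3 Tet2 took 34.9% against 24.4% for Tet1. The ratio of Tet1 to Tet3 counts was 0.832, 0.577 and 0.391 in Bahd1-WT brains, against 0.827, 0.525 and 0.555 in Bahd1-KO brains, a difference of 0.12 in mean log2 ratio (exact permutation test, p = 1.0), and of 0.20 without Bahd1-KO replicate 3.

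Over the 6 embryos, Mbd3 and Mbd2 held the widest spread of the 9 genes, and that of Mbd2 rested on Bahd1-KO replicate 3. Mbd2 (ENSMUSG00000024513, chromosome 18, 70568189 to 70626131, forward strand) was at 31.0, 26.7 and 27.0 TMM-scaled CPM in Bahd1-WT brains, against 30.5, 27.5 and 90.6 in Bahd1-KO brains. Bahd1-KO replicate 3 was 3.17 times the mean of the other 5, which differed by no more than 1.16 times. In the fit, the log2 fold change was 0.81 (-0.32 to 1.94, adjusted p = 0.696, edgeR) in all embryos and 0.02 (-0.46 to 0.50, adjusted p = 0.995) without that library.

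Mbd3 (ENSMUSG00000035478, chromosome 10, 80392539 to 80399550, reverse strand) was at 22.4, 57.7 and 74.1 TMM-scaled CPM in Bahd1-WT brains, against 11.7, 45.7 and 10.2 in Bahd1-KO brains. Bahd1-KO replicate 2 stood with Bahd1-WT replicates 2 and 3, whereas Bahd1-WT replicate 1 stood nearer to the low Bahd1-KO embryos. The highest embryo was 7.29 times the lowest, and 6.31 times with Bahd1-KO replicate 3 left out, the widest range of the 9 genes in both sets. Bahd1-WT averaged 51.4 ± 26.4 and Bahd1-KO averaged 22.5 ± 20.1 (SD, n = 3 each). The log2 fold change was -1.19 (-2.81 to 0.43, adjusted p = 0.696, edgeR), -0.83 (-2.32 to 0.65, adjusted p = 0.981) without Bahd1-KO replicate 3 and -2.27 (adjusted p = 0.235) without Bahd1-KO replicate 2. Leaving out any other embryo gave -1.57 to -0.84. The ratio of Mbd3 to Mbd2 counts was 0.723, 2.16 and 2.74 in Bahd1-WT brains, against 0.385, 1.66 and 0.112 in Bahd1-KO brains. The lowest 2 ratios were in Bahd1-KO and the highest 2 in Bahd1-WT. The mean log2 ratio differed by -1.97 (exact permutation test, p = 0.2, adjusted p = 0.4), by -1.02 without Bahd1-KO replicate 3 and by -2.97 without Bahd1-KO replicate 2 (exact p = 0.1, the smallest that this design allows). Leaving out any other embryo gave -2.55 to -1.59. Bahd1-KO replicate 2 was the highest of its group in Mbd3 level (45.7 TMM-scaled CPM) and in the ratio (1.66). Without it, the group holds Bahd1-KO replicates 1 and 3, which were both low in Mbd3 (11.7 and 10.2).

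**Figure D2:**
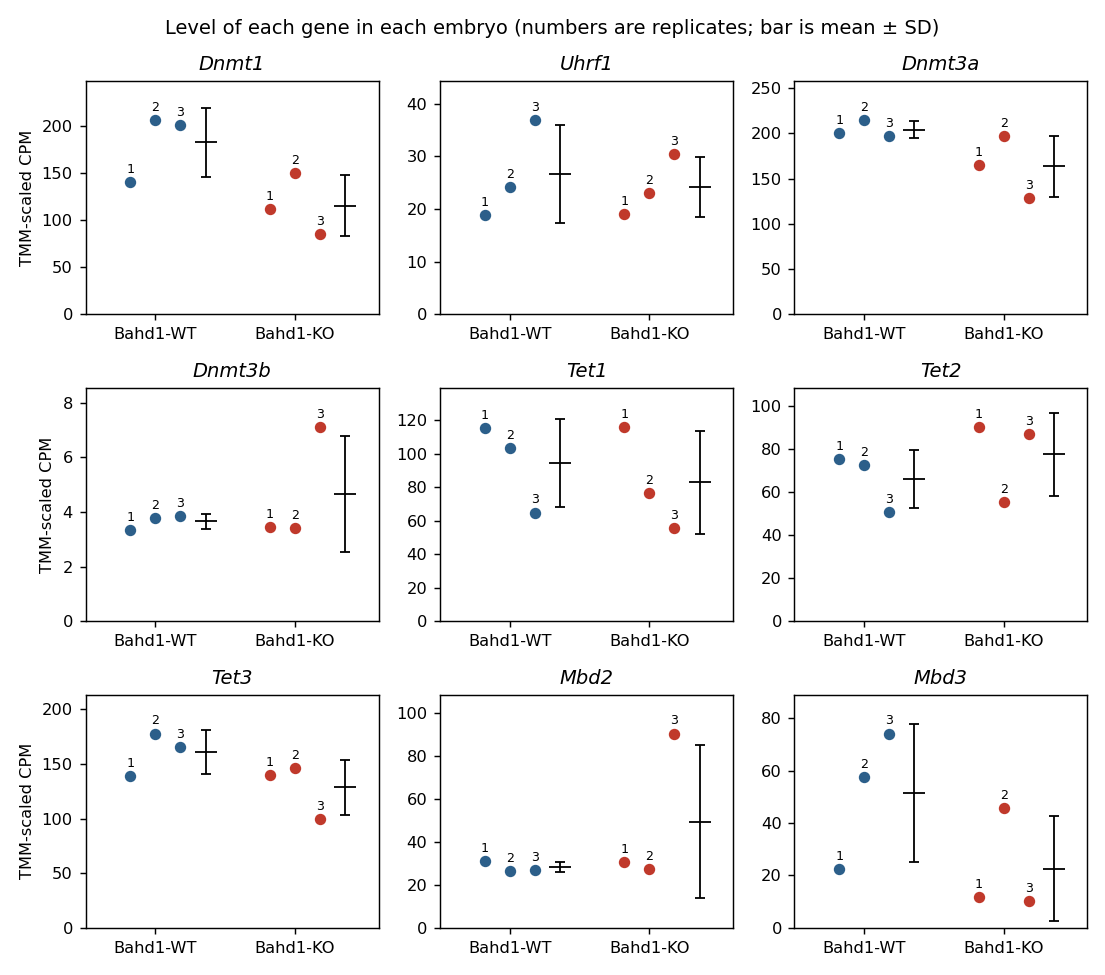
TMM-scaled CPM of the 9 genes in each embryo (points, numbered by replicate) with mean ± SD for each genotype (n = 3). The genotypes overlap in all 9 panels, and Bahd1-KO replicate 3 alone lies high for Mbd2 (90.6) and Dnmt3b (7.12).

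**Figure D3:**
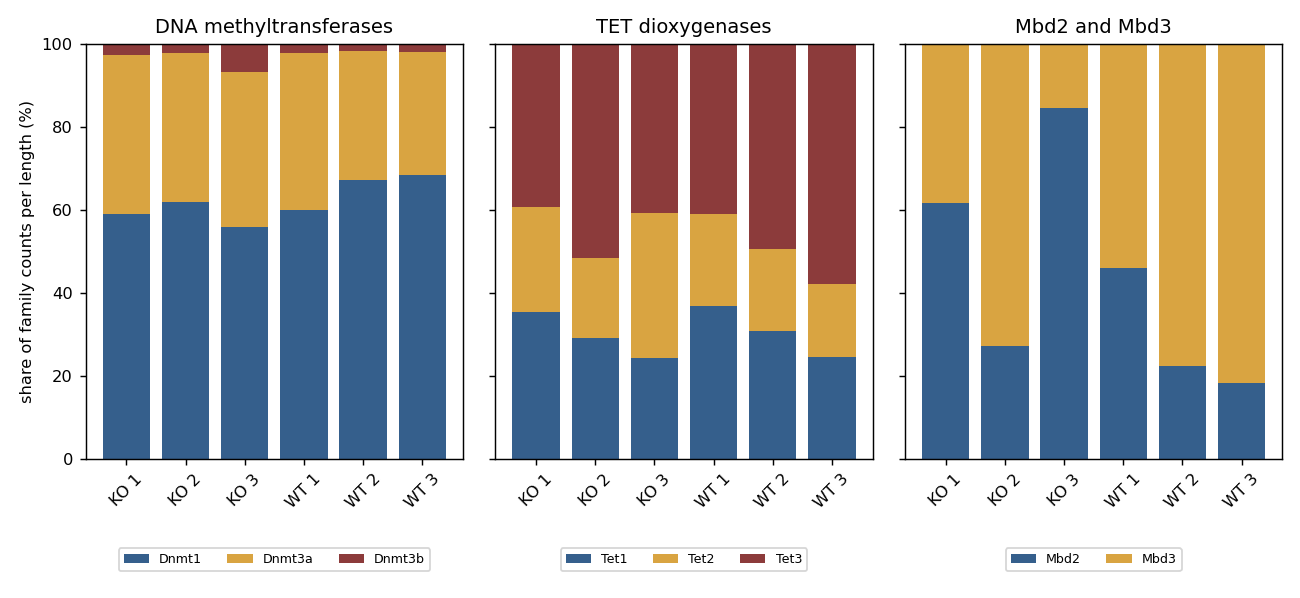
Share of counts per length (%) that each gene takes of its family, in each Bahd1-KO (KO) and Bahd1-WT (WT) embryo. Dnmt1 takes 55.9 to 68.5% of the 3 methyltransferases and Tet3 39.5 to 58.0% of the TET genes, while the Mbd2 share runs from 18.4 to 84.6%.

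Taken over the fit of all genes, 0 of the 9 genes passed an adjusted p of 0.05, where 0.00404% of all genes did in edgeR (1 gene, Bahd1). At an unadjusted p under 0.05, 0 of the 9 passed in edgeR, where 4.67% of all genes passed. DESeq2, the tool of the study, called 0 of the 9 after adjustment, where it called 0.0323% of all genes. At an unadjusted p under 0.05 it gave 1 of the 9 (Dnmt1, unadjusted p = 0.0498), where 5.12% of all genes passed. The limma voom fit with a quality weight for each embryo gave 2 of the 9, Dnmt1 (unadjusted p = 0.0129) and Mbd3 (unadjusted p = 0.0161), where 8.95% of all genes passed, and their adjusted p was 0.535 each. Leaving out Bahd1-KO replicate 2, edgeR gave the same pair (Dnmt1, unadjusted p = 0.0289, and Mbd3, unadjusted p = 0.00517), where 20.2% of all genes passed. Leaving out Bahd1-WT replicate 1, it gave Dnmt1 (unadjusted p = 0.043), where 1.21% of all genes passed. Without Bahd1-KO replicate 3, edgeR called 0 of the 9 and 0.0171% of all genes. For 0 of the 9 genes the genotypes did not overlap, whereas this held for 6.71% of all genes, and without Bahd1-KO replicate 3 again for 0 of the 9 and for 10.7% of all genes.

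Of the 9 genes, 3 (Dnmt3b, Tet2 and Mbd2) had the higher mean in Bahd1-KO. The log2 fold changes of the 9 had a median of -0.19, where 53.8% of all genes were higher and the median of all genes was 0.06. Without Bahd1-KO replicate 3, again 3 of the 9 were higher (Tet1, Tet2 and Mbd2), with a median of -0.18, where 49.2% of all genes were higher and their median was -0.01. With a correction for GC content the median of the 9 turned to 0.05, with 5 of the 9 higher, and that of all genes was 0.08. The corrected median of the 9 was -0.05 without Bahd1-KO replicate 3, with 3 of the 9 higher. Over 23 fits with other filters, scalings, tests or sets of embryos, the log2 fold change was below 0 in all 23 for Dnmt1 (-0.93 to -0.26), for Dnmt3a (-0.51 to -0.01) and for Mbd3 (-2.27 to -0.26), and took both signs for the other 6. These fits share their libraries, and the lowest adjusted p of any of the 9 genes in them was 0.235.

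**Figure D4:**
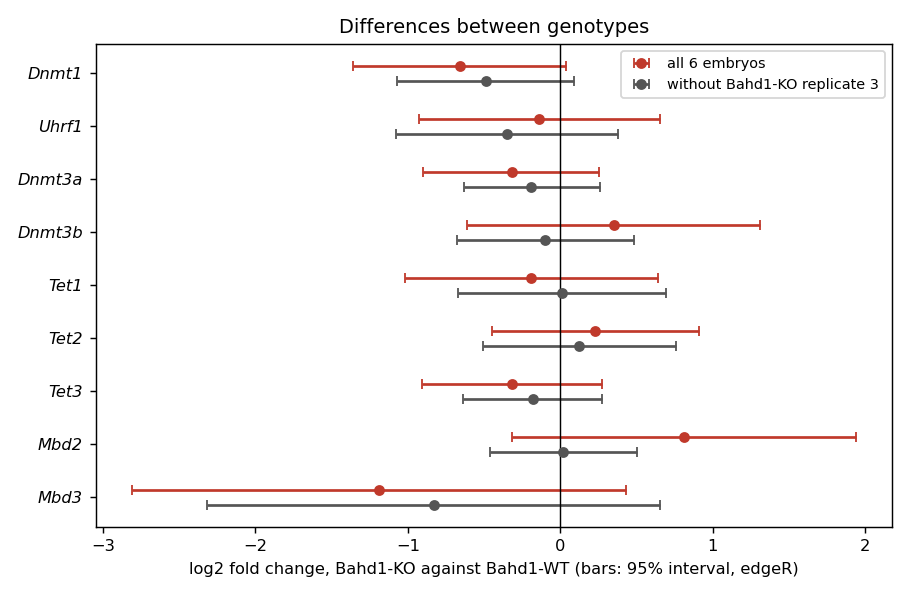
Log2 fold change of Bahd1-KO against Bahd1-WT for the 9 genes with 95% intervals from edgeR, for all 6 embryos and without Bahd1-KO replicate 3. Every interval holds 0; those of Mbd2 and Dnmt3b shorten and move to near 0 without that embryo.

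The spread between embryos moved with the GC content of transcripts. In 489 expressed genes with 60 to 65% GC, the median log2 deviation from the median embryo was -0.37, 0.49 and 0.42 in Bahd1-WT brains, against -0.86, 0.37 and -1.0 in Bahd1-KO brains. Mbd3 transcripts have 61.6% GC, and 98.5% of 14812 expressed genes have less. Its own deviations were -0.51, 0.84 and 1.2 in Bahd1-WT brains, against -1.41, 0.51 and -1.61 in Bahd1-KO brains. They had the same sign as the median of the 252 genes within 1% of its GC content in all 6 embryos, and were larger in each. The same-GC medians were -0.38, 0.48 and 0.42 in Bahd1-WT brains, against -0.86, 0.37 and -1.0 in Bahd1-KO brains. Tet1 and Tet2, with 44.7 and 44.1% GC, were the lowest of the members. Of the expressed genes, 19.0% have less than Tet2. The remaining 6 members had 53.2 to 55.8%, against a median of 49.7% for all expressed genes.

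When each library was corrected for GC content, an alternative chosen after the data had been seen, the log2 fold change of Mbd3 was -0.62 (adjusted p = 0.726, edgeR) and that of Dnmt1 was -0.39 (adjusted p = 0.726). In the same fit Mbd2 was at 1.14, Dnmt3b at 0.64 and Tet1 at -0.34, each farther from 0 than without the correction. Uhrf1 turned from -0.14 to 0.19, also farther from 0, and Tet3 from -0.32 to 0.10. Dnmt3a was at -0.09 and Tet2 at 0.05. The corrected values without Bahd1-KO replicate 3 were -0.48 for Mbd3, -0.27 for Dnmt1, 0.24 for Mbd2, 0.10 for Dnmt3b and -0.14 for Tet1. In Bahd1-KO replicate 3, Mbd2, Dnmt3b, Uhrf1 and Tet1 did not follow the GC trend. Genes near their GC content had a median deviation of -0.37, -0.35, -0.36 and 0.01 there, in that order. Mbd2 itself deviated by 1.63, Dnmt3b by 0.89, Uhrf1 by 0.36 and Tet1 by -0.67. The remaining members deviated to the same side as genes near their GC content. The cell type markers of this library, given above, also stood apart, and their part in these values was not tested.

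**Figure D5:**
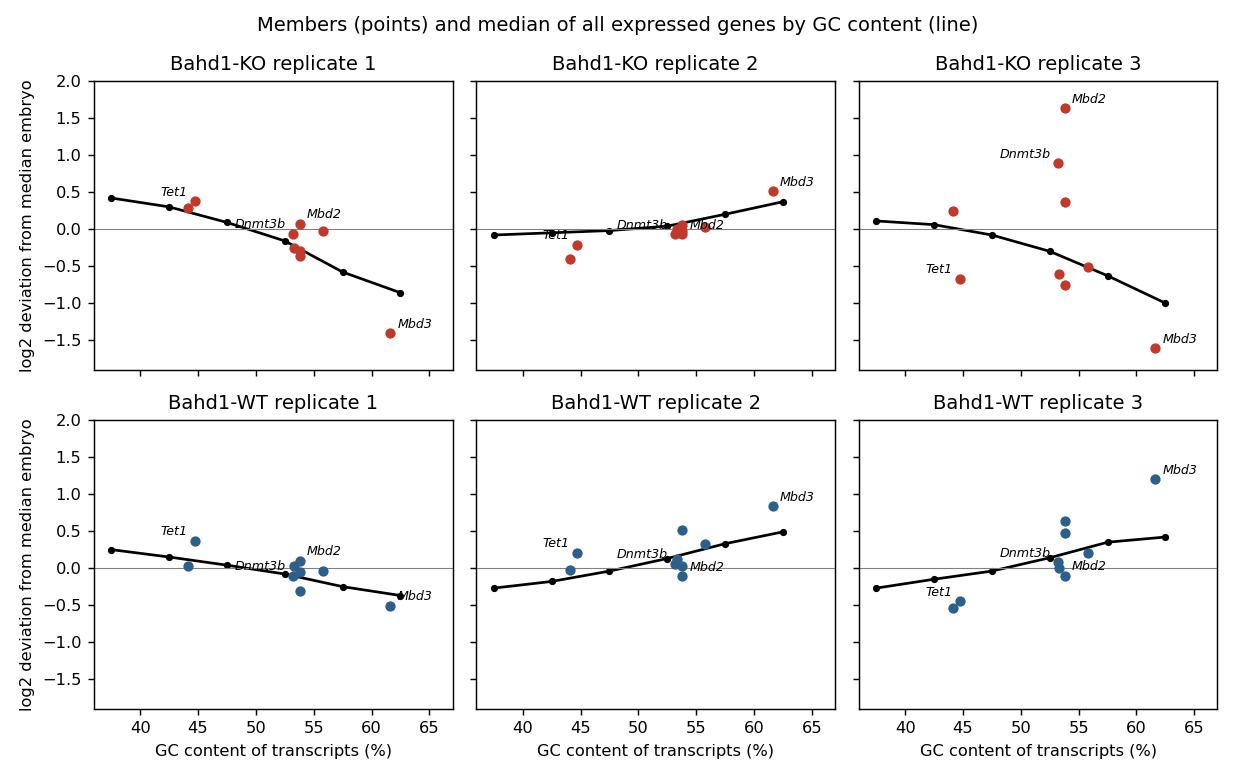
Log2 deviation from the median embryo against transcript GC content (%) in each embryo, with the 9 genes as points and the median of all expressed genes in 5% steps of GC as a line. The line falls with GC in Bahd1-KO replicates 1 and 3 and Bahd1-WT replicate 1 and rises in the other 3, and Mbd3 lies beyond it on the same side in all 6 panels.

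The wider pathway was examined with a list of 36 further genes of DNA methylation, among them cofactors of maintenance, base excision repair, other methyl-CpG binding proteins and the enzymes that make the methyl donor. Of the 34 that passed the count minimum, 0 were called in either direction by edgeR and 0 had an unadjusted p under 0.05, and the genotypes overlapped for all 34. Their log2 fold changes had a median of -0.07, with 16 means higher and 18 lower in Bahd1-KO, and of 0.02 with 17 in each direction without Bahd1-KO replicate 3. The genotypes did not overlap for 1 of the 34 without Bahd1-KO replicate 3, where this held for 10.7% of all genes. It was Neil2, a base excision repair glycosylase named after its values were seen, at 1.34 and 1.31 TMM-scaled CPM in Bahd1-KO replicates 1 and 2 against 1.03 to 1.28 in Bahd1-WT. The list summed to 1598 TMM-scaled CPM in Bahd1-KO replicate 3 and to 2371 to 2805 in the other embryos. Dnmt3l and Dppa3, used in germ cells and the early embryo, did not reach the count minimum.

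Of the 12 other subunits of NuRD, the nucleosome remodelling and deacetylase complex that MBD2 and MBD3 join, 0 were called by edgeR and 0 had an unadjusted p under 0.05. Their median log2 fold change was -0.17, with 4 higher and 8 lower in mean, and the same counts and median held without Bahd1-KO replicate 3. The genotypes overlapped for all 12 subunits. Chd4, the main remodelling ATPase of the complex, is named here after its values were seen. It was at 325, 403 and 427 TMM-scaled CPM in Bahd1-WT brains, against 300, 319 and 330 in Bahd1-KO brains. Its log2 fold change was -0.28 (adjusted p = 0.701, edgeR). Without Bahd1-KO replicate 3 its genotypes did not overlap (log2 fold change -0.33, adjusted p = 0.981), which held for 1 of the 12 subunits and for 10.7% of all genes.

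A list of 20 germline genes was also followed, chosen as genes that promoter methylation can silence in somatic tissue. Not all of them were silent, since Brdt, Tdrd1 and Ddx4 had 6.65 to 7.97, 2.32 to 3.30 and 2.30 to 2.66 TMM-scaled CPM in Bahd1-WT. Of the 14 that passed the count minimum, 0 were called by edgeR after adjustment and 2 had an unadjusted p under 0.05, where 4.67% of all genes did. Their median log2 fold change was 0.45, with 10 higher and 4 lower in mean, and 0.33 with 10 of 12 higher without Bahd1-KO replicate 3, where 53.8% and 49.2% of all genes were higher. Asz1, Taf7l and Mov10l1, the last named after its values were seen, reached the count minimum only with their Bahd1-KO reads. Mov10l1 had 0, 2 and 1 counts in Bahd1-WT brains, against 0, 2 and 7 in Bahd1-KO brains. The filter thus favoured higher means in Bahd1-KO for these genes, and they are no evidence of a difference. The list summed to 16.1, 14 and 12.8 TMM-scaled CPM in Bahd1-WT brains, against 18.7, 14.4 and 18.9 in Bahd1-KO brains, so that the genotypes overlapped. Brdt, Tdrd1 and Ddx4 made up most of that sum in each embryo. Taf7l, a testis form of a TFIID subunit (chromosome X, 134460118 to 134476490), was the single gene of the list whose genotypes did not overlap in all 6 embryos. It had 3, 3 and 2 counts in Bahd1-WT brains, against 7, 25 and 5 in Bahd1-KO brains, which is 0.0198 to 0.0340 against 0.0927 to 0.296 TMM-scaled CPM. Its log2 fold change was 2.5 (0.78 to 4.23, adjusted p = 0.696, edgeR), and 2.80 (adjusted p = 0.981) without Bahd1-KO replicate 3. The other gene with an unadjusted p under 0.05 was Asz1, a gene of germ cell piRNA production, with 266 counts in Bahd1-KO replicate 3 and 0 in each other embryo. Brdt and Stk31 did not overlap either without Bahd1-KO replicate 3, both higher in Bahd1-KO, which makes 3 of 12, where 10.7% of all genes did not overlap. Of the 20 genes, 14 stayed under 1 TMM-scaled CPM in every embryo, which limits what the counts can show.

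The genes whose pattern over the 6 embryos was most like that of each member were found among 14825 genes with a mean of at least 1 TMM-scaled CPM, by Pearson correlation of log2 values. These are descriptions over 6 libraries, whose levels move with GC content and of which 1 stands apart. The genes were picked for the highest r among 14825, so values near 1 come in part from the search. For Uhrf1 the nearest were Kif22 (r = 0.9997), Lig1 (r = 0.9964) and Cdca3 (r = 0.9856), and with the 2 farthest embryos left out r was 1.00, 0.99 and 0.91. For Dnmt1 they were Gon4l, Ints3 and Nup188 (r = 0.9973 to 0.9992), and for Dnmt3a Diras1, Desi1 and Disp2 (r = 0.9953 to 0.9982). For Dnmt3b they were C5ar1, Ptpn21 and Timp1 (r = 0.9977 to 0.9988). Tet1 was most like the pseudogene Gm6483, whose counts may be shared with similar copies, then Klf12 and Tnrc6a (r = 0.9919 to 0.993). Tet2 was most like Tbl1x, Bod1l and Dync2h1 (r = 0.9863 to 0.9907), and Tet3 like Krba1, Urb1 and Myo19 (r = 0.9955 to 0.9987). Mbd2 had 459 genes above r = 0.99, led by Heph, Fam198b and Steap4 (r = 0.9994 to 0.9996), and Mbd3 had 222, led by Psmd3, Klc4 and Mzt2 (r = 0.9992 to 0.9997). Uhrf1 had 2 such genes and Tet2 had 1. For Mbd2, which was far higher in Bahd1-KO replicate 3, r with Heph, Fam198b and Steap4 was 0.96 to 0.98 with the 2 farthest embryos left out.

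Within the set, Dnmt1 and Tet3 were most alike (r = 0.95, Spearman rho = 0.94, and r = 0.91 over the 4 embryos left without the 2 farthest), and Dnmt1 was also nearest to Mbd3 (r = 0.95, rho = 0.94, and r = 0.86 over 4 embryos). Dnmt3b and Mbd2 also had r = 0.95, but this rested on Bahd1-KO replicate 3. Their rho was -0.03, and r was -0.65 over the 4 embryos left without the 2 farthest by Dnmt3b. The lowest correlations were those of Mbd2 with Tet3 (r = -0.91, rho = -1.0, and r = -0.84 over 4 embryos) and with Dnmt3a (r = -0.91, rho = -0.60, and r = -0.26 over 4 embryos). Uhrf1 was least like Tet1 (r = -0.86, rho = -0.83), and Tet2 least like Mbd3 (r = -0.87, rho = -0.89). Tet2 and Mbd3 had the lowest and highest transcript GC content of the members, at 44.1 and 61.6%. Whether GC content had a part in their correlation was not tested.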

How the data were processed

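Whole brains of 6 E16.5 embryos (3 Bahd1-KO and 3 Bahd1-WT) were used, grouped by the sample titles. The authors purified polyadenylated RNA, built stranded TruSeq libraries, trimmed reads with cutadapt 1.11, aligned them to GRCm38 and deposited raw counts per Ensembl gene from featureCounts 1.4.6-p3, run strand-specifically over exons. For alignment, STAR 2.5.0a and TopHat2 both appear in the methods, and the one behind these counts was not given in the sources used here. The library totals were 61724000 to 91782802 counts. Sampling error was not set against the spread between embryos. It weighs most on genes of low count, such as many of the germline genes, Neil2 (57 to 114 counts) and Dnmt3b (226 to 389 counts).

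Genes that summed to 10 counts or more over the embryos were tested with edgeR 4.0.16 (quasi-likelihood, two-sided, TMM factors, genotype alone) in R 4.3.3, with Benjamini-Hochberg adjustment over all 24739 genes and a threshold of 0.05. Levels are counts per 1e6 TMM-scaled counts. The log2 deviations and correlations used a pseudocount of 0.5. Exon length, GC content and positions came from GENCODE M21, which matched 99.82% of the genes. Count ratios were compared by exact permutation over embryos. The script was tested on simulated counts, which held no library like Bahd1-KO replicate 3 and no GC trend. That test does not bear on these features of the data.

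The members and lists were chosen with earlier results of these data known. The genes named are Bahd1, the 9 members, genes of the 3 further lists that were called or (up to 6 a list, by lowest p) did not overlap between genotypes, and the 3 genes most like each member; others are marked where they stand. Alternatives were other count filters (none, filterByExpr), other factors (DESeq2 size factors, upper quartile, total counts), DESeq2 1.42.0, limma 3.58.1 voom with quality weights, a likelihood ratio test in edgeR, the replicate number as a block, untailed and mitochondrial RNA left out, each embryo left out, and, chosen after seeing the data, a lowess correction for GC content (span 0.3).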

Additional observations from a re-analysis of the deposited data

How the results depend on the processing

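In every fit 0 of the 9 members were called, and of 198 recomputed log2 fold changes of members 20 changed sign. The number of genes called among all genes was 1 (Bahd1), and became 8 with DESeq2, 6 with voom, 6 with the likelihood ratio test, 11 with DESeq2 and no Bahd1-KO replicate 3, 6 with the GC correction and no Bahd1-KO replicate 3, and 0 without untailed and mitochondrial RNA (1094 at an unadjusted p under 0.05). Leaving out 1 embryo gave 0 to 4, with 4 without Bahd1-KO replicate 3 and 0 otherwise (154 to 4878 genes at an unadjusted p under 0.05). Bahd1 stayed between -8.97 and -7.81 in all 23 fits. It lost its call without untailed and mitochondrial RNA (-8.41, adjusted p = 0.0546, edgeR) and without any embryo other than Bahd1-KO replicate 3 (-8.78 to -8.01). Those fits hold 5 embryos.

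The labels did not state whether the replicate numbers were a pairing. Same-numbered embryos correlated at 0.277, 0.365 and -0.127 in their deviations from the genotype means, and other pairs at -0.525 to 0.394. These values cannot decide it, since the means include Bahd1-KO replicate 3. With the replicate number as a block, the calls among all genes were 0 (517 with an unadjusted p below 0.05) and Bahd1 had a value of -8.49, and with the GC correction as well these were 0 (373) and -7.84. Without Bahd1-KO replicate 3 the block called 16 genes, and 27 with the GC correction. The block without that embryo gave Mbd3 an unadjusted p of 0.00333 and Dnmt1 one of 0.00754 (adjusted p = 0.293 and 0.338, edgeR), where 2171 of 23334 genes were under 0.05, and with the GC correction Tet1 one of 0.0343 (1161 genes). In these blocked fits without Bahd1-KO replicate 3, Bahd1-WT replicate 3 was alone in its block. It then does not bear on the genotype difference, and little is left to estimate the spread. Members higher in Bahd1-KO were then 0 with the block and no Bahd1-KO replicate 3, 5 with the GC correction and 5 with both the block and the GC correction in all embryos.

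Signs turned with voom for Dnmt3b (-0.07) and Tet1 (0.05), with DESeq2 and no Bahd1-KO replicate 3 for Dnmt3b (-0.10) and Tet1 (0.01), and with the block and no Bahd1-KO replicate 3 for Dnmt3b (-0.06), Tet2 (-0.07) and Mbd2 (-0.01). With the GC correction they turned for Uhrf1 (0.19) and Tet3 (0.10), with the block as well at 0.17 and 0.08. Without Bahd1-KO replicate 3 the GC correction turned Tet2 (-0.05) and Tet3 (0.17), and with the block also Uhrf1 (0.11), Tet2 (-0.17) and Tet3 (0.07). Leaving out 1 embryo gave -0.10 to 0.53 for Dnmt3b, -0.37 to 0.15 for Uhrf1, -0.51 to 0.01 for Tet1 and -0.15 to 0.39 for the log2 ratio of Tet1 to Tet3. The cause of these turns was not tested. Upper-quartile factors moved the median of all genes from 0.06 to 0.17 and total counts to -0.11, with no member changing sign under either. The median of the members turned from -0.19 to 0.05 with the GC correction in all embryos, with and without the block. Without Bahd1-KO replicate 3 it did not turn, at -0.05 with the GC correction and -0.09 with the block as well.

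Groups of 3 embryos limit what can be seen. The permutation test cannot give a p under 0.1, and the intervals of members reach 1.94 for Mbd2 and -2.81 for Mbd3.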

Other observations

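Levels (TMM-scaled CPM) of single genes of the wider DNA methylation list are given here, chosen after they were seen, and none of them passed the test. Mbd1, described as a partner of BAHD1, was even, at 47.8 to 59.0 TMM-scaled CPM over the 6 embryos (log2 fold change -0.14, adjusted p = 0.833, edgeR, and -0.14 without Bahd1-KO replicate 3). Zfp57, which keeps methylation at imprinted genes, was at 237, 180 and 28.9 in Bahd1-KO and at 185, 184 and 186 in Bahd1-WT, so that 1 library lay apart from the others (log2 fold change -0.32, adjusted p = 0.872, edgeR, and 0.16 without Bahd1-KO replicate 3). Hells, a remodelling factor of methylation, was at 49.4, 30.9 and 73.3 in Bahd1-KO and at 35.6, 23.1 and 32.9 in Bahd1-WT (log2 fold change 0.74, adjusted p = 0.696, edgeR, and 0.38 without Bahd1-KO replicate 3). Idh1, which makes the 2-oxoglutarate that TET enzymes use, was at 481, 449 and 92.5 in Bahd1-KO and at 489, 401 and 437 in Bahd1-WT (log2 fold change -0.38, adjusted p = 0.822, edgeR, and 0.06 without Bahd1-KO replicate 3).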
